A study of Rattus norvegicus with 8 samples.

Results

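Latrophilin 2 and latrophilin 3 (Adgrl2 and Adgrl3, listed by the authors as Lphn2 and Lphn3), the related adhesion receptor CD97 (Adgre5, listed as Cd97) and the secreted synaptic protein Lgi1 were followed in the medial prefrontal cortex (mPFC) of adult rats. The 4 genes were taken by name from the authors' deposited tables of changed genes, and each had 1 probe among the 450 probes listed there, which name 427 genes. Adgrl2, Adgre5 and Lgi1 stood in the table of lower genes and Adgrl3 in the table of higher genes. From postnatal day 2 to 21 the pups were given 10 mg/kg of fluoxetine, an antidepressant that blocks the uptake of serotonin (group PNFLX), or its vehicle of 5% sucrose (group CONTROL), and whole mPFC was collected at 6 months of age. Total RNA was labelled with Cy3 and measured on a custom Agilent rat array in one colour, with 4 arrays per group. The labels name no strain or sex and do not say how many animals stand behind an array, so every spread below is one between arrays and may be technical. The free-text descriptions of CONTROL 2, 3 and 4 mention fluoxetine, while their titles, their source names and the authors' tables call them control, and the titles were followed.

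Latrophilins are adhesion G protein-coupled receptors, which carry a long extracellular part that is cut autocatalytically close to the membrane. They were named after the latrotoxin of the black widow spider, sit at synapses in the brain, and bind teneurins and FLRT proteins on the facing cell. CD97 belongs to the same receptor superfamily but is known mainly from leukocytes, where it binds CD55. LGI1 is secreted by neurons, links the receptors ADAM22 and ADAM23 across the synaptic cleft, and is the gene mutated in a human familial temporal lobe epilepsy.

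For 3 of the 4 genes, those with lower values in PNFLX, RefSeq (GRCr8) gave the 250 bases before a transcription start, and they are shown so that the regions upstream of genes that were lower together can be compared. Capitals mark matches, on either strand, to 4 short promoter motifs. These were the TATA element, spelled TATAAA, the GC-box, spelled GGGCGG, the CCAAT element, searched by the letters of its name, and the core of the cyclic AMP response element (CRE), spelled TGACG, and no match overlapped another.
Adgrl2, chr2:240495300-240495549, minus strand: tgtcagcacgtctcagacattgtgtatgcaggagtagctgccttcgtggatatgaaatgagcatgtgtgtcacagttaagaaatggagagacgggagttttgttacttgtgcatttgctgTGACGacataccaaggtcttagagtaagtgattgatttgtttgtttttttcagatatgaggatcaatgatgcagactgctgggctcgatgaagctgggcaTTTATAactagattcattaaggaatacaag
Lgi1, chr1:245455441-245455690, plus strand: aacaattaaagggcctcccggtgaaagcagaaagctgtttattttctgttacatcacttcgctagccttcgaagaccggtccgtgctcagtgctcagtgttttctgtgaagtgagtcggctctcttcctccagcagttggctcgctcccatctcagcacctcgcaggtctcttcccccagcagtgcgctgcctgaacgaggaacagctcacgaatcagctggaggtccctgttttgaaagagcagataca
Adgre5, chr19:41303388-41303637, plus strand: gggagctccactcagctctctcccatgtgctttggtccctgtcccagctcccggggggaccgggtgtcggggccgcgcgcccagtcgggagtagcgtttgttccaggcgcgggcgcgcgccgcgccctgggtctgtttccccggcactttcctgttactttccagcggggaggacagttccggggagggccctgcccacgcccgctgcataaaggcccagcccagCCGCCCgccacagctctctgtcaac
The Adgrl2 window held 1 CRE core, whose first base lies at -130 from the start, and 1 TATA element on the reverse strand, from -30. The Adgre5 window held 1 GC box on the reverse strand, from -25, and the Lgi1 window held none of the 4 motifs. Among the 33469 RefSeq windows of this length, 18.2% hold the CRE core, 12.9% the TATA element, 30.5% the GC box and 34.0% the CCAAT element, so each match is common. GC content also differed, at 41.2% for Adgrl2, 52.8% for Lgi1 and 70.0% for Adgre5, against a median of 51.2% over all windows. The starts used for Adgrl2 and Adgre5 lie inside the annotated genes and not at their 5′ ends, only the Lgi1 window ends at the 5′ end of its gene, and these arrays do not show which start was used.

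All values below are log2 values against the probe's own CONTROL median, so they are differences and not levels, and the background-subtracted signal is given beside them. The authors listed a probe where its mean PNFLX value was at least 0.4 from that median and their unadjusted p was at most 0.05, which 1.48% of all 15207 probes met in either direction alone. The listed means nearest to this limit were 0.41 among higher and -0.41 among lower probes, so the 4 genes, at means of 1.82 for Adgrl3, -2.51 for Adgre5, -4.22 for Adgrl2 and -4.95 for Lgi1 in the authors' deposited table, were well inside it. Their p-values in the authors' deposited table were 0.00724 for Adgrl3, 0.00186 for Adgre5, 0.000131 for Adgrl2 and 5.48e-05 for Lgi1. Because these values chose the genes, the differences between PNFLX and CONTROL are given as a description, without a test.

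The 2 latrophilins differed in opposite directions. Adgrl2, a receptor of excitatory synapses in the mouse hippocampus, stood at 0.32, -0.02, 0.02 and -0.22 in CONTROL 1 to 4 and at -5.63, -4.01, -3.64 and -3.61 in PNFLX 1 to 4. The groups were far apart, with 3.39 between the lowest CONTROL and the highest PNFLX value, and PNFLX 1 was the lowest array. The mean difference was -4.25 ± 0.48 (log2, SE from limma, n = 4 per group). The signal of this probe was 520, 327, 336 and 209 in CONTROL and 6.01, 30.7, 29.6 and 29.6 in PNFLX, and the median CONTROL signal was 11.2 times the PNFLX median. These signals are not scaled between arrays and are summarised by medians, so this ratio is smaller than the mean log2 difference gives. Only 18 of all 15207 probes had a more negative difference.

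Adgrl3, whose human counterpart has been studied as a candidate gene for attention deficit hyperactivity disorder, stood at 0.73, -0.66, 0.66 and -1.07 in CONTROL 1 to 4. In PNFLX 1 to 4 it stood at 1.44, 1.79, 2.03 and 2.03. The groups did not overlap, but the gap was 0.71, smaller than the CONTROL range of 1.80. The mean difference was 1.91 ± 0.47 (log2, SE from limma, n = 4 per group), and 97 probes had a more positive one. This probe was dim in CONTROL, with signals of 40.1, 12.1, 30.4 and 6.70, and reached 46.9, 99.3, 87.4 and 85.4 in PNFLX. Before scaling between arrays, the signals of CONTROL 1 and PNFLX 1 were thus close. The CONTROL arrays fell into a higher pair, 1 and 3, and a lower pair, 2 and 4, while the PNFLX arrays spread less, with an SD of 0.28 against 0.92.

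**Figure D1:**
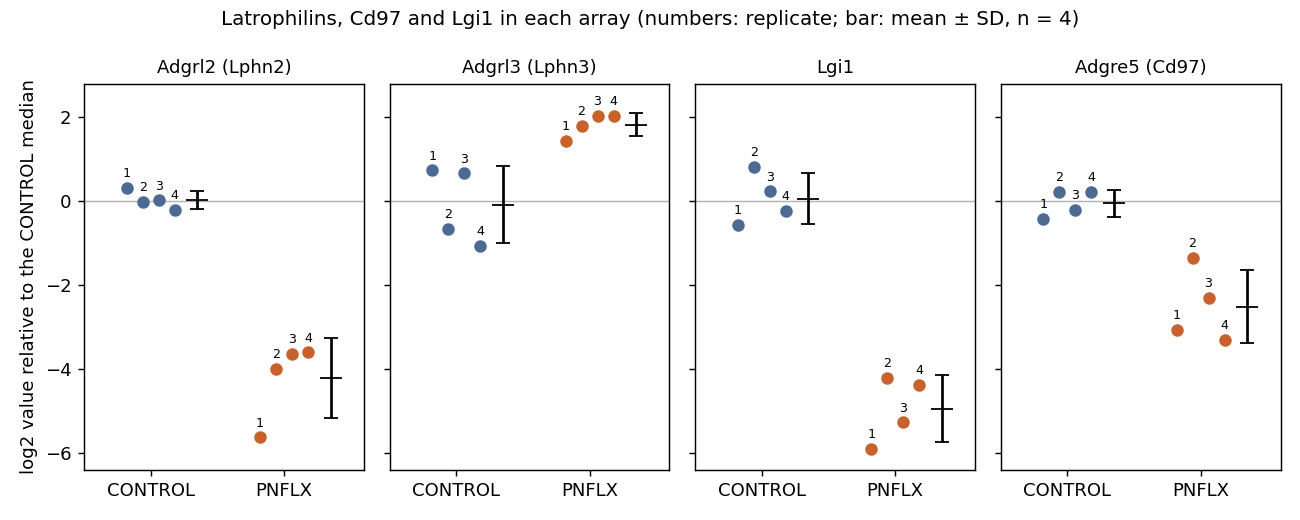
Log2 value of each probe relative to the CONTROL median (vertical axis) in the 4 CONTROL and 4 PNFLX arrays, numbered by replicate, with the mean and SD as a bar (n = 4). Adgrl2, Lgi1 and Adgre5 lie lower in every PNFLX array than in any CONTROL array, and Adgrl3 lies higher.

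Within each array the value of Adgrl3 was set against that of Adgrl2, a difference that any scaling shared by an array leaves unchanged. It was 0.41, -0.64, 0.64 and -0.85 in CONTROL 1 to 4 and 7.07, 5.80, 5.67 and 5.64 in PNFLX 1 to 4. The PNFLX arrays were thus close to one another except PNFLX 1, where Adgrl2 was lowest. The mean was -0.11 ± 0.75 in CONTROL and 6.05 ± 0.69 in PNFLX (SD, n = 4 each), a shift of 6.16 between groups. Each probe is centred on its own CONTROL median, so the small CONTROL mean follows from the centring and does not compare levels. The median CONTROL signal was 331 for Adgrl2 and 21.2 for Adgrl3. Inside each group, however, both latrophilins ordered the arrays alike. From the lowest up the order was CONTROL 4, 2, 3 and 1 and PNFLX 1, 2, 3 and 4 for both genes. This exact pair of orders, taken from these 2 genes, occurred in 8 of the 15207 probes (0.0526%). Both latrophilins are counted there by construction, and any single pair of orders is rare among the many possible. No likeness of the 2 genes is thus read from this share. The shared order was noticed after the values were seen. The CONTROL 2 and 3 values of Adgrl2, and the PNFLX 3 and 4 values of both genes, are nearly equal.

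**Figure D2:**
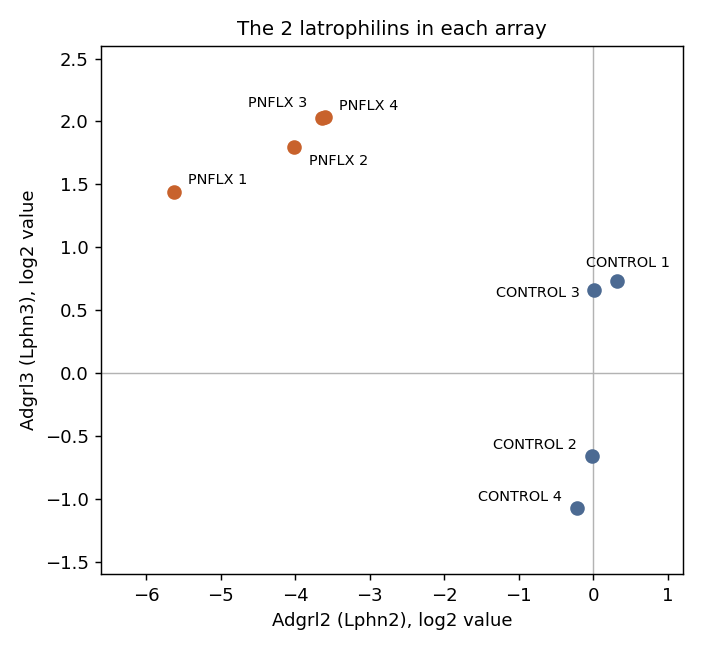
Log2 value of Adgrl2 (horizontal axis) against that of Adgrl3 (vertical axis), 1 point per array. The 4 PNFLX arrays lie at upper left, at -5.63 to -3.61 for Adgrl2 and 1.44 to 2.03 for Adgrl3, apart from the CONTROL arrays near 0 on the horizontal axis.

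Lgi1 had the most negative difference of the 4 genes as deposited. At the signal floors given below Adgrl2 was the lower of the pair, but every PNFLX array of Lgi1 was then at the floor. The turned order thus does not show which gene had the larger difference. Lgi1 stood at -0.57, 0.81, 0.23 and -0.23 in CONTROL 1 to 4 and at -5.91, -4.22, -5.28 and -4.38 in PNFLX 1 to 4. The gap of 3.66 between the groups exceeded the range within either one (1.38 in CONTROL and 1.69 in PNFLX). The mean difference was -5.01 ± 0.49 (log2, SE from limma, n = 4 per group), and only 6 of all probes had a more negative one. Its signal was 169, 349, 234 and 124 in CONTROL and 2.97, 15.9, 5.74 and 10.4 in PNFLX. No PNFLX array thus exceeded a signal of 15.9, while no CONTROL array was below 124.

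Adgre5, the receptor with a mainly leukocytic role, had a smaller difference on a dim probe. It stood at -0.43, 0.21, -0.21 and 0.22 in CONTROL 1 to 4 and at -3.07, -1.36, -2.31 and -3.30 in PNFLX 1 to 4. The groups were 0.94 apart, and PNFLX 2 was nearest to the CONTROL arrays. The mean difference was -2.46 ± 0.46 (log2, SE from limma, n = 4 per group), with 122 probes more negative. The signal was only 26.1, 32.1, 24.1 and 23.8 in CONTROL and 2.97, 16.1, 6.24 and 3.06 in PNFLX. None of 16 marker genes of microglia and immune cells was among the named probes, nor any of 8 excitatory neuron, 7 interneuron and 8 astrocyte markers, so these cell types were not analysed here. Of 11 endothelial and pericyte markers 5 were listed, Emcn as higher and Kcnj8, Rgs5, Cldn5 and Anpep as lower, and of 5 oligodendrocyte precursor and 9 striatal markers Vcan was listed as lower and Adcy5 as higher. None of 8 oligodendrocyte, 6 erythrocyte, 6 choroid plexus and 6 meningeal and fibroblast markers was listed. Over all probes 2.96% were listed, and which markers have a probe was not analysed here. The part of the listed markers in the differences above was not tested. In bulk tissue, fewer cells of a type and less RNA per cell cannot be told apart.

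The signal of 2.97 for Lgi1 and Adgre5 in PNFLX 1 was the lowest of that array among listed probes. It was shared by 57 of the 450 listed probes, all in the table of lower genes, of which they make up 25.3%. On each of the other 7 arrays 1 probe held the lowest listed signal, which ranged from 1.14 in PNFLX 3 to 14.9 in CONTROL 1. Adgrl2, at 6.01, was 2.02 times this lowest signal in PNFLX 1. Values at one shared signal have no order, so Lgi1 and Adgre5 cannot be ranked in that array. Without PNFLX 1 the differences were -4.69 for Lgi1, -2.28 for Adgre5, -3.78 for Adgrl2 and 2.04 for Adgrl3. Raising scaled signals to at least 20 before taking logs brought the difference of Adgre5 to -0.50, that of Lgi1 to -3.45 and those of Adgrl2 and Adgrl3 to -3.87 and 1.48. At that floor of 20, every PNFLX array of Lgi1 and Adgre5 was at the floor. At a floor of 50 every array of Adgre5 was at the floor and no difference was left. Adgrl2 was then at -2.83, Lgi1 at -2.13 and Adgrl3 at 0.52. Every PNFLX array of Adgrl2 and Lgi1 and every CONTROL array of Adgrl3 was also at the floor of 50. Those differences thus reflect only the signal of the other group.

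**Figure D3:**
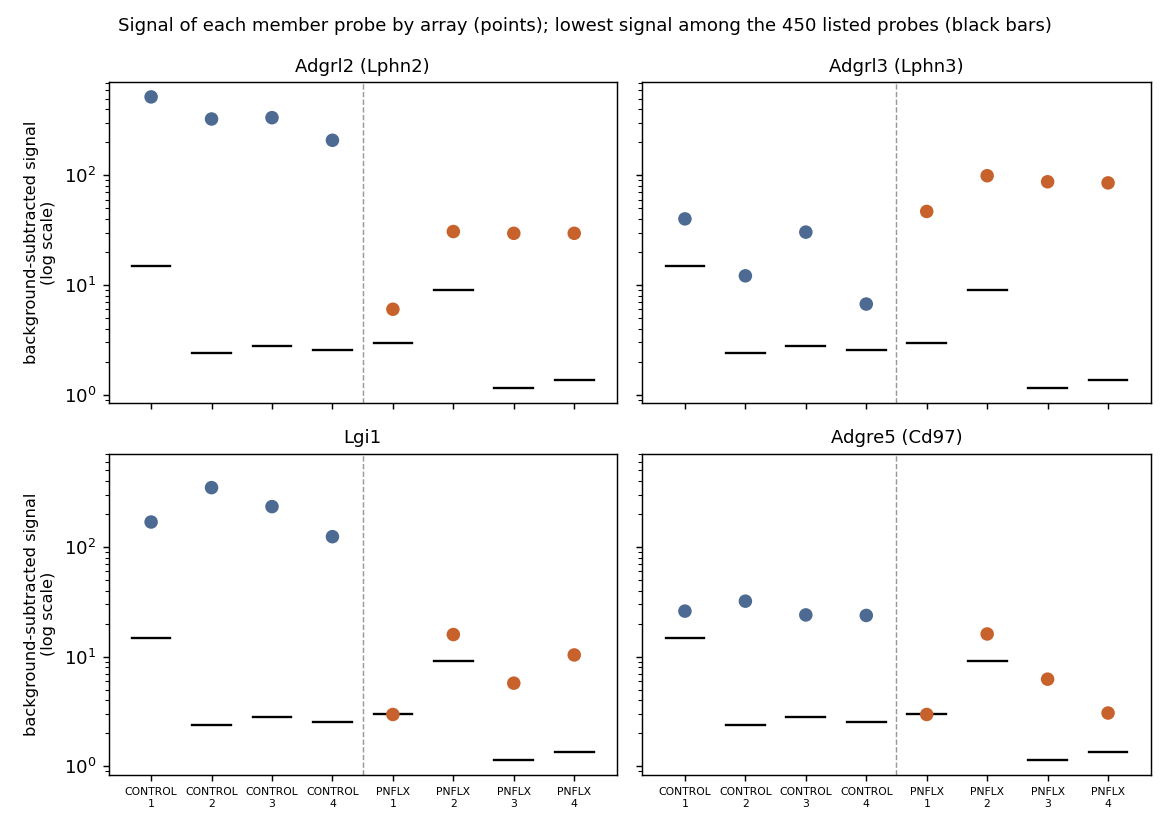
Background-subtracted signal (vertical axis, log scale) of each of the 4 probes in every array, CONTROL in blue and PNFLX in orange, with a black bar at the lowest signal among the 450 listed probes of that array. Lgi1 and Adgre5 sit on the bar in PNFLX 1 at 2.97, and Adgrl2 stays above the bar in all arrays.

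Each of the 4 genes had its groups apart, which over all 15207 probes held for 1.18% in the higher and 1.14% in the lower direction, 2.32% in all. The limma fit over the whole table, with Benjamini-Hochberg adjustment and a threshold of 0.05, called 18 probes (0.118%), 9 higher and 9 lower (0.0592% each), and Adgrl2 and Lgi1 were among the 9 lower ones. Neither gene was called with equal 75th percentiles (4 probes called), with a variance trend or a replicate block (0 each), or without moderation of the variances (12), nor in 5 of the 8 fits with 1 array left out. The variance trend was fitted against mean log2 values, which here are differences and not signal levels. Its SE was 3.94 for Lgi1 and 1.68 for Adgrl2, against 0.49 and 0.48 in the main fit. Nothing is therefore read from its 0 calls. The same contrast chose the 4 genes, so nothing is read from the groups being apart or from the calls. Over all probes, 2 arrays had a wider spread of values, CONTROL 1 (SD 2.01) and PNFLX 2 (SD 1.72), against SDs of 0.54 to 1.15 (log2) elsewhere. In the other 6 arrays the differences were -4.22 for Adgrl2, 2.19 for Adgrl3, -5.46 for Lgi1 and -2.97 for Adgre5. PNFLX 2 minus CONTROL 1, with 1 array each, was -4.33 for Adgrl2, 1.06 for Adgrl3, -3.66 for Lgi1 and -0.94 for Adgre5. Every direction was thus the same within this pair, though Adgre5 and Adgrl3 differed less there. The lowest listed signal was also highest in these arrays, at 14.9 in CONTROL 1 and 9.09 in PNFLX 2. Adgre5 was only 1.75 and 1.77 times that signal. Adgrl3 was 2.70 times it in CONTROL 1 and 10.9 times it in PNFLX 2. The part of this in the smaller differences was not tested. The fit of the 6 arrays called 2 of the 4 genes, Lgi1 and Adgre5, and no longer Adgrl2, among 40 probes called in all (0.263%).

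**Figure D4:**
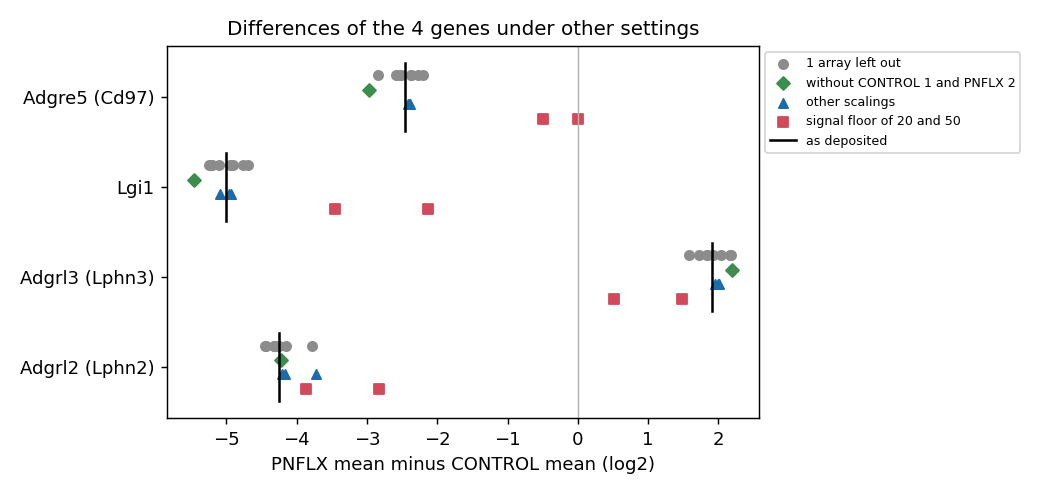
PNFLX mean minus CONTROL mean (horizontal axis, log2) of each gene as deposited (black line), with 1 array left out, without CONTROL 1 and PNFLX 2, under other scalings and with a signal floor of 20 and 50. The points stay near the line except at the signal floors, where Adgre5 lies at -0.50 and 0.

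The 4 genes were next set among other adhesion genes. Of 245 genes on 10 lists of adhesion families, 8 were named in the authors' tables, 3 as higher and 5 as lower, where the tables list 225 higher and 225 lower probes. The 8 are 3.27% of the list genes, near the 2.96% of all 15207 probes that were listed, though which list genes have a probe was not analysed here. Of the 8, 4 are the genes followed here and count by construction, so nothing is read from this share. The list of 28 adhesion G protein-coupled receptors had the 2 latrophilins and Adgre5. The list of 16 LGI family members and LGI receptors had Lgi1 alone. None of 17 latrophilin ligands and partners, such as the teneurins, and none of 10 CD97 ligands and leukocyte partners was named. The other 4 listed genes were Lrrtm3, Epha7, Sema6b and Sema7a. Probes outside the authors' tables carry no gene name in the sources used here, so the genes that are not named were not analysed here.

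Of the 4 other list genes, the semaphorin Sema6b, a transmembrane axon guidance ligand, was nearest in size to Adgre5. It stood at -0.35, 0.43, -0.97 and 0.35 in CONTROL 1 to 4 and at -4.09, -2.66, -1.24 and -2.83 in PNFLX 1 to 4, a difference of -2.57 ± 0.63 (log2, SE from limma). Like Adgrl2 and Lgi1, it was lowest in PNFLX 1. Sema7a, a membrane-anchored semaphorin, differed by -1.07 ± 0.31. Lrrtm3, a postsynaptic leucine-rich repeat protein that binds neurexins, stood at 0.90, 1.34, 1.71 and 1.41 in PNFLX 1 to 4 and at most at 0.82 in CONTROL, a difference of 1.38 ± 0.43. Epha7, an ephrin receptor, differed by 0.97 ± 0.41, and its groups were only 0.03 apart. Lrrtm3 and Adgrl3 were both lowest in PNFLX 1 within their group. The same held for Armc8, Vcam1, Astn1 and Col4a1, described below, so it is common among listed adhesion genes. It does not set Sema6b or Lrrtm3 beside the latrophilins and Lgi1.

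A further 11 genes carried the term cell adhesion in the authors' annotation, a list added after the tables were seen. With them, 19 adhesion genes were listed, 8 as higher and 11 as lower, and the groups did not overlap in 13 (68.4%), against 63.1% of all 450 listed probes. The 19 include the 4 genes followed here, all with their groups apart. Among the 15 others the groups did not overlap in 9 (60%). The annotated genes nearest to Lgi1 and Adgrl2 in size were Armc8 (-3.47 ± 0.77), Vcan (-3.24 ± 0.54), Hapln1 (-2.98 ± 0.95) and Vcam1 (-2.76 ± 0.85). Vcan, also the oligodendrocyte precursor marker named above, is the matrix proteoglycan versican, Hapln1 is a link protein, and Vcam1 is a vascular cell adhesion molecule. In Armc8, Vcan and Hapln1 PNFLX 1 was at the shared lowest signal of 2.97, as in Lgi1 and Adgre5. Hapln1 and Vcam1 overlapped between groups, through PNFLX 2 at -0.20 and PNFLX 3 at -0.04. Among the higher genes only Atp1b2, a subunit of the sodium pump that also acts in adhesion of glia, lay above Adgrl3, at 2.11 ± 0.39. Gne, Cxcl12, Col4a1 and Pcdhac2 lay between 0.79 and 1.35 above CONTROL, and Astn1 and Fez1 lay at -0.64 and -0.53. By limma none of these 15 other adhesion genes was called as deposited, and the calls of Adgrl2 and Lgi1 are those described above, lost under several settings, so the calls do not set them apart from the others. Without CONTROL 1 and PNFLX 2 all 19 genes kept their direction and 17 had their groups apart, with Vcam1 and Col4a1 as the exceptions. These 17 are 89.5% of the 19 genes, against 89.8% of all 450 listed probes and 12.3% of all 15207 probes in the same 6 arrays.

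**Figure D5:**
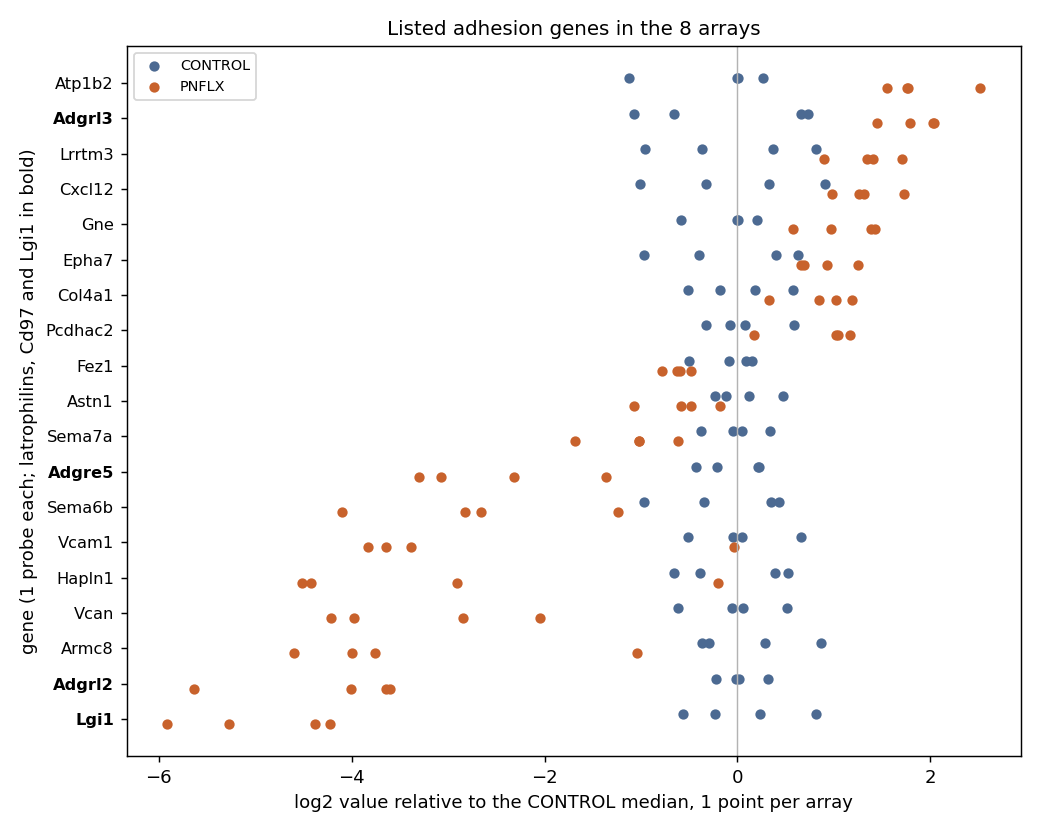
Log2 value relative to the CONTROL median (horizontal axis) of the 19 listed adhesion genes in the 4 CONTROL and 4 PNFLX arrays, 1 point per array, ordered by the mean difference. Lgi1 and Adgrl2 have the 2 lowest mean differences, at -5.01 and -4.25, and Adgrl3 the next to highest, at 1.91.

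Likeness to each gene was measured as the mean absolute difference of log2 values over the 8 arrays, among all named listed genes. The gene nearest to Lgi1 was the transcription factor Etv1 (0.52), followed by Adgrl2 (0.60). Adgrl2 lay nearest to Itsn1 (0.41), a scaffold of endocytosis, and to Entpd5 (0.47), and Lgi1 came at rank 8 (0.60). Nearest to Adgrl3 were Wfdc1 (0.29), Mpst (0.29), an enzyme of sulfur metabolism, and Adnp (0.41), a neuroprotective transcription factor. Adgre5 lay nearest to Bpifa1 (0.22), listed as Plunc and known from airway secretions, to Rapgef1 (0.34) and to B4galnt4 (0.39). The 2 latrophilins were far from each other by this measure, at 3.34 on average over the arrays. Etv1, near Lgi1, and Bpifa1 and Rapgef1, near Adgre5, were at the shared lowest signal in PNFLX 1, as were Lgi1 and Adgre5 themselves. Entpd5 was also at it, while Adgrl2, to which it lay near, was not. A shared signal is not a shared log2 value, which depends on each probe's CONTROL median (-5.91 for Lgi1 and -3.07 for Adgre5). The part of this signal in the likeness was not tested. All these genes were chosen by the same contrast, so likeness includes the shared direction of the group difference.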

How the data were processed

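Whole mPFC RNA was hybridised in one colour to 8 arrays, grouped by their titles. Per the labels' protocols, 500 ng of RNA were converted to Cy3-labelled cRNA. The deposited values are log2 differences from the CONTROL median of each probe. The authors' tables add an unadjusted p-value and, per the file headers, a background-subtracted signal intensity. The array scaling, software and detection flags are not stated in what was used here, so dim probes were kept, and the number of arrays limits the precision.

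Of 450 listed probes, 436 matched a RefSeq gene (GRCr8) by ID, symbol or synonym. Probes were fitted with limma 3.58.1 (R 4.3.3, two-sided) over all 15207 probes, adjusted by Benjamini-Hochberg, and the fit was tested on simulated data. Other steps used Python 3.11.15. The log2 of the signal less the log2 value gave 1 constant per array and 1 per probe, and the array constant scaled the signals for the floors. The genes and lists were chosen with earlier results of these data known. Named are the 4 genes, listed members of the adhesion lists and the 3 nearest genes of each. One item is not reported here. Alternatives were other scalings, models, signal floors, group medians, a replicate block and leaving out arrays.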

Additional observations from a re-analysis of the deposited data

Results flagged for a closer look

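Among 40 groups of 4 arrays examined (19 adhesion genes and the difference of the 2 latrophilins), 3 held an array whose gap to the rest was large for the group's range (Dixon's ratio for 4 values), where chance alone gives about 2. The difference of the latrophilins is built from values of 2 of the genes, so the 40 groups are not independent. Adgrl3 minus Adgrl2 was 7.07 in PNFLX 1 against 5.64 to 5.80 in the other PNFLX arrays (ratio 0.886). In PNFLX 1 the signal of Adgrl2 was 6.01, only 2.02 times the lowest listed signal. Vcam1 was at -0.037 in PNFLX 3 against -3.83 to -3.38 (ratio 0.883), a value inside the CONTROL range. Pcdhac2 was at 0.17 in PNFLX 2 against 1.02 to 1.17 (ratio 0.852).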

How the results depend on the processing

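The 4 genes and the latrophilin difference kept their direction under all alternatives run, except that Adgre5 had no difference left (0) at a signal floor of 50. A floor moved the differences by more than the spread between arrays for Adgre5 at 20 (-0.50), Lgi1 at 20 and 50 (-3.45 and -2.13), Adgrl2 and Adgrl3 at 50 (-2.83 and 0.52) and Adgrl3 minus Adgrl2 at 20 and 50 (5.35 and 3.34). No other alternative moved them that far. With 1 array left out, differences ran from -4.45 to -3.78 for Adgrl2, from 1.58 to 2.18 for Adgrl3, from -2.84 to -2.20 for Adgre5, from -5.25 to -4.69 for Lgi1 and from 5.81 to 6.41 for Adgrl3 minus Adgrl2. The number of probes limma called, 18, was 10 with quantile normalization, 4 with equal 75th percentiles, 0 with a variance trend (323 at an unadjusted p under 0.05) and 40 without CONTROL 1 and PNFLX 2, and ran from 2 to 26 with 1 array left out. It was 2 without CONTROL 2 or PNFLX 4, 3 without CONTROL 3 and 4 without CONTROL 4. The cause was not tested. The variance trend, however, was fitted against mean differences and not signal levels, so nothing is read from its 0 calls. Adgrl2 and Lgi1 were both called in the fit without PNFLX 1, Lgi1 alone without CONTROL 1 or PNFLX 2, and neither in the other 5, nor with equal 75th percentiles, a variance trend, no moderation (12 calls) or the block. Array numbers as a replicate block gave 0 calls (346 at an unadjusted p under 0.05) and left the differences as they were (-4.25 for Adgrl2), and the deviations of same-numbered arrays correlated from -0.67 to 0.44 across probes, below the 0.85 of CONTROL 1 with PNFLX 2, so the numbers were not taken as pairs. These are title numbers. The authors' tables and the source names call CONTROL 3 and 4 Control 4 and 5 and PNFLX 4 PNFLX 5, so there CONTROL 3 and PNFLX 3 share no number. Without the probes' detection flags, the signal over background limits Adgre5, Adgrl3 in CONTROL and Lgi1 in PNFLX.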
